A study of Mus musculus with 12 samples.

Results

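The striatum of R6/2 mice after symptom onset was compared with the striatum of WT littermates. R6/2 mice carry a transgene, made of the promoter and first exon of the human HTT gene with a long CAG repeat, beside the normal mouse Htt gene that the WT mice also have. Of the 12 RNAseq libraries of the series, 4 entered this comparison. The libraries labelled postHD-STR (HD 1 and HD 2) came from HD (R6/2) mice for which the labels give an age of 13 weeks. The libraries labelled postWT-STR and preWT-STR came from WT littermates of 13 and 8 weeks, with 1 library per age, and they were pooled as the 2 WT libraries. Libraries of pre-symptomatic HD striatum (8 weeks) and of cortex are given only where they show how the striatal values lie. The question was which genes of the striatum differ between HD mice with symptoms and WT mice.

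The striatum receives input from the cortex and thalamus and takes part in the control of movement. Most of its neurons are medium spiny neurons, which release GABA and respond to dopamine. Those of the direct pathway carry the D1 dopamine receptor and the peptides substance P and dynorphin. Those of the indirect pathway carry the D2 dopamine receptor, an adenosine receptor and enkephalin. The remaining neurons are interneurons, among them the cholinergic cells. In Huntington's disease the medium spiny neurons are the cells known to be most affected.

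The total count lay between 8814386 and 10226002 in the 4 libraries, and the values below are CPM, counts relative to library size scaled by edgeR's TMM method. Library preparation used Lexogen QuantSeq, a method that reads 3′ ends of transcripts, so that the length of a gene does not set its count. The WT tissue matched its label, since Ppp1r1b, which encodes DARPP-32 of medium spiny neurons, averaged 1939 CPM in WT striatum and 131 CPM in WT cortex. Drd2 was the exception among the defining striatal genes, with 3 counts in the HD libraries together and 2 in the WT libraries together, and no comparison was made for it. Xist and Y-linked genes showed 1 male and 1 female library in each group. In the WT group the 13-week library was female and the 8-week library was male, so age and sex cannot be told apart there. Both HD libraries were of 13 weeks, so the comparison of HD with WT is in part also one of age. The part of age was not tested. Rn45s, the row of the ribosomal RNA precursor, held 14.4% of all counts in HD 1 and 15.2% in HD 2, and 5.62% in the postWT and 4.32% in the preWT library. The libraries of each group differ in sex and so came from different mice, although the labels do not say whether each library held 1 mouse or several.

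Over 13705 genes tested, 1914 differed between HD and WT striatum with an adjusted p-value under 0.05 (edgeR quasi-likelihood test with Benjamini-Hochberg adjustment). This was 14.0% of the genes tested. Of these, 1035 were lower in HD mice (7.55%) and 879 were higher (6.41%). Counts of called genes in the lists below are to be read beside these shares. A log2 fold change beyond 1 in size was reached by 627 of the lower and 481 of the higher genes, and the median over all genes was 0.01. The groups did not overlap, with both HD libraries below both WT libraries, for 31.3% of the genes, and with both above for 28.7%. A lack of overlap was thus common with 2 libraries against 2, and where given below it only describes the values. The count of 1914 depended on which libraries were used. It was 531 without the preWT library, 884 without the postWT library, 1710 without HD 2 and 2570 without HD 1. In bulk tissue, fewer cells of a type and less RNA per cell cannot be told apart. An exact two-sided permutation test over the 4 libraries has 6 arrangements, so its smallest p-value is 2 in 6, which no single gene can pass.

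**Figure D1:**
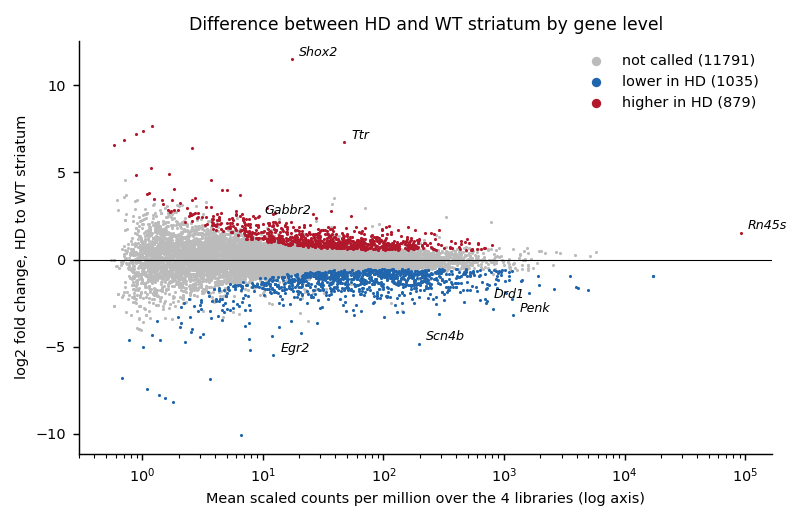
log2 fold change of HD over WT striatum (vertical axis) against the mean CPM over the 4 libraries (horizontal log axis) for 13705 genes. Blue points are the 1035 genes lower and red points the 879 genes higher in HD mice with an adjusted p-value under 0.05, and Scn4b, Penk and Drd1 lie among the abundant genes that fell.

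Genes that carry dopamine and calcium signals inside medium spiny neurons were lower as a group. Of the 40 genes of this list tested, 35 were lower in HD striatum and 0 were higher, with a median log2 fold change of -1.77. Both HD libraries showed it, with medians of -1.81 and -1.86 against the WT mean. The count of lower genes lay between 30 and 34 when each library was left out in turn. The summed level of the list was 8956 and 9715 CPM in the HD libraries and 34974 and 29072 CPM in the WT libraries.

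Scn4b, the β4 subunit of voltage-gated sodium channels, fell most in this list. It was at 9.58 and 16.4 CPM in the HD libraries and 320.2 and 435 CPM in the WT libraries, a mean 29.1-fold lower in HD (log2 fold change -4.84, SE 0.28, edgeR adjusted p = 0.000102). On GRCm38, Scn4b spans bases 45138395 to 45154152 of chromosome 9, plus strand. Ryr1, a calcium release channel, was at 2.51 and 0.750 CPM in the HD libraries and 29.9 and 20.8 CPM in the WT libraries (log2 fold change -3.89, SE 0.48, edgeR adjusted p = 0.00166). Rasgrp2, an activator of the small GTPase Rap1, was at 41.4 and 78.3 CPM in the HD libraries and 579 and 465 CPM in the WT libraries (log2 fold change -3.10, SE 0.30, edgeR adjusted p = 0.000953). Rgs4, which shortens G protein signals, was at 160.5 and 227 CPM in the HD libraries and 1736 and 1105 CPM in the WT libraries (log2 fold change -2.85, SE 0.27, edgeR adjusted p = 0.000595). The WT libraries lay far above both HD libraries for each of these genes, although the WT values of Rgs4 themselves differed by more than those of the others.

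Ppp1r1b was at 352 and 428 CPM in the HD libraries and 2081 and 1797 CPM in the WT libraries, which is 4.97-fold lower on average (log2 fold change -2.29, SE 0.19, edgeR adjusted p = 0.00028). Pde10a, which breaks down cyclic nucleotides, was at 58.6 and 59.2 CPM in the HD libraries and 295 and 271 CPM in the WT libraries (log2 fold change -2.24, SE 0.16, edgeR adjusted p = 0.000144). Adenylyl cyclase 5, Adcy5, which makes cyclic AMP in these neurons, had a log2 fold change of -2.55, and the phosphodiesterase Pde1b had -2.48. The most abundant members of the list were Ppp3ca, the catalytic subunit of calcineurin, and Prkcb, a protein kinase C. Ppp3ca was at 2350.0 and 2107 CPM in the HD libraries and 8682 and 6876 CPM in the WT libraries (log2 fold change -1.78, SE 0.21, edgeR adjusted p = 0.00104). Prkcb was at 1114 and 1312 CPM in the HD libraries and 4459 and 3468 CPM in the WT libraries (log2 fold change -1.68, SE 0.20, edgeR adjusted p = 0.00128). Neither of these overlapped between the groups. The 5 genes of the list that did not pass the test were Gprin3 (-0.68), Gnal (-0.45), Dgkz (-0.43), Cacng4 (-0.23) and Strn (-0.20), by log2 fold change. Gnal encodes the G protein that couples D1 and adenosine receptors to adenylyl cyclase.

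**Figure D2:**
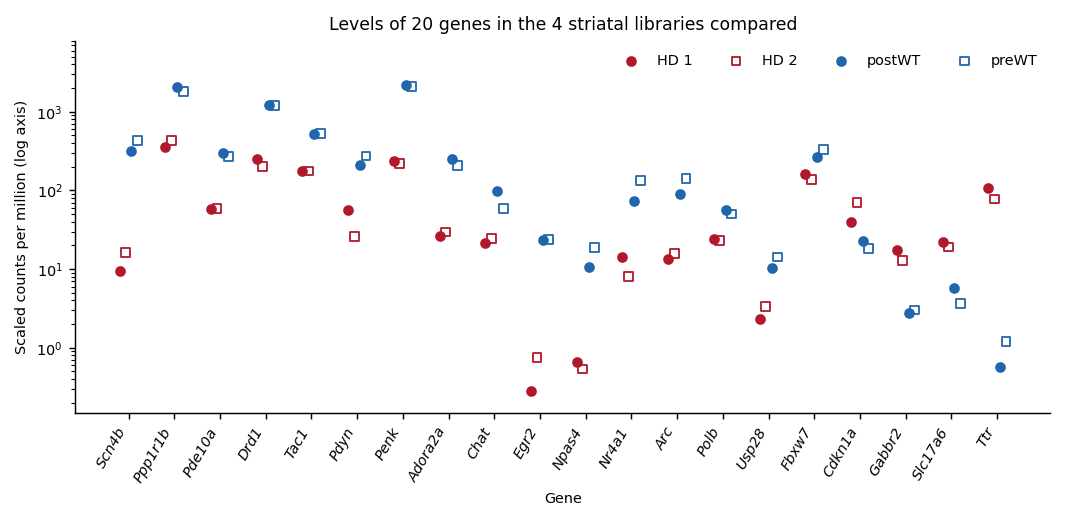
CPM on a log axis of 20 genes (horizontal axis) in the 4 striatal libraries, with HD in red (filled circle HD 1, open square HD 2) and WT in blue (filled circle postWT, open square preWT). Both HD libraries lie below both WT libraries from Scn4b to Fbxw7 and above them from Cdkn1a to Ttr.

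Genes of the direct pathway were lower for 5 of 12 tested and higher for 0, with a median log2 fold change of -0.96. The HD libraries differed in size, with medians of -1.22 in HD 1 and -0.64 in HD 2 against the WT mean. Log2 fold changes lay below 0 for 10 of the genes and above 0 for 2, with a highest of 1.20. Drd1, the D1 dopamine receptor, was at 252 and 201 CPM in the HD libraries and 1207 and 1214 CPM in the WT libraries (log2 fold change -2.39, SE 0.18, edgeR adjusted p = 0.000215). Drd1 spans bases 54051183 to 54055705 of chromosome 13, minus strand. Tac1, the precursor of substance P, was at 178 and 176 CPM in the HD libraries and 529 and 532 CPM in the WT libraries (log2 fold change -1.55, SE 0.15, edgeR adjusted p = 0.000518). Pdyn, the precursor of dynorphin, was at 55.8 and 26.1 CPM in the HD libraries and 208 and 274 CPM in the WT libraries (log2 fold change -2.52, SE 0.36, edgeR adjusted p = 0.00715). The HD values of Pdyn differed from each other by more than those of Drd1 or Tac1, but neither reached a WT value. Slc35d3, needed for D1 receptor trafficking, was at 19.4 and 19.9 CPM in the HD libraries and 68.9 and 70.3 CPM in the WT libraries (log2 fold change -1.79, SE 0.18, edgeR adjusted p = 0.000547). The fifth was Chrm4, the M4 muscarinic receptor (log2 fold change -0.98, SE 0.24, edgeR adjusted p = 0.0282). Of the members that did not pass, Isl1 had a log2 fold change of -0.37 and Ebf1 one of 0.04. Both encode transcription factors of these neurons.

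In the indirect pathway list, 4 of 9 tested genes were lower and 0 were higher, with a median of -1.15. Log2 fold changes lay below 0 for 8 of these genes and above 0 for 1, which was at 2.14 and did not pass the test. Penk, the precursor of enkephalin, was at 236 and 219 CPM in the HD libraries and 2184 and 2075 CPM in the WT libraries, a mean 9.35-fold lower in HD (log2 fold change -3.20, SE 0.18, edgeR adjusted p = 6.66e-05). Penk spans bases 4133531 to 4138819 of chromosome 4, minus strand. Adora2a, the adenosine receptor of this pathway, was at 26.3 and 29.6 CPM in the HD libraries and 252 and 206 CPM in the WT libraries (log2 fold change -3.01, SE 0.19, edgeR adjusted p = 8.92e-05). It spans bases 75316877 to 75334784 of chromosome 10, plus strand. For both genes the HD values lay far under the WT values. Plxdc1 was at 8.46 and 7.39 CPM in the HD libraries and 26.9 and 25.2 CPM in the WT libraries (log2 fold change -1.68, SE 0.25, edgeR adjusted p = 0.00282). Upb1, a pyrimidine-degrading enzyme, was lower in both HD libraries at 0.279 and 0.214 CPM, against 4.48 and 5.13 CPM in the WT libraries (log2 fold change -4.18, SE 0.71, edgeR adjusted p = 0.00573). The Upb1 row rests on 3 and 2 counts in the HD libraries, and the gene overlaps Gucd1 on the opposite strand. Drd2, Gpr6 and Gpr52 had too few counts to be tested.

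The ratio of one gene's counts to another's within a library does not depend on how libraries were scaled. The ratio of Penk to Tac1 counts was 1.33 and 1.24 in the HD libraries and 4.13 and 3.90 in the WT libraries. Enkephalin precursor thus fell more than substance P precursor in both HD libraries. The ratio of Adora2a to Drd1 counts was 0.105 and 0.147 in the HD libraries and 0.209 and 0.170 in the WT libraries. Here too the HD values lay below the WT values, by less than for the peptides. The ratio of Drd1 to Ppp1r1b counts, at 0.715 and 0.470 in HD and 0.580 and 0.675 in WT, overlapped between the groups. These pairs were chosen after the values of the genes were known, and the ratios were not tested.

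Transcription factors that set the identity of striatal neurons were lower for 7 of 23 tested and higher for 1, with a median of -0.57. The median was -0.87 without HD 1 and -0.34 without the preWT library. Bcl11b (CTIP2), needed for the development of medium spiny neurons, was at 445 and 381 CPM in the HD libraries and 1268 and 1389 CPM in the WT libraries (log2 fold change -1.66, SE 0.17, edgeR adjusted p = 0.000654). Rarb, a retinoic acid receptor, was at 35.0 and 22.6 CPM in the HD libraries and 88.1 and 118 CPM in the WT libraries (log2 fold change -1.80, SE 0.24, edgeR adjusted p = 0.00228). Its partner receptor Rxrg was at 61.3 and 45.7 CPM in the HD libraries and 146 and 146 CPM in the WT libraries (log2 fold change -1.42, SE 0.19, edgeR adjusted p = 0.0018). Foxp1, which is abundant in striatal neurons, was at 685 and 658 CPM in the HD libraries and 1483 and 1558 CPM in the WT libraries (log2 fold change -1.15, SE 0.16, edgeR adjusted p = 0.00255). The HD and WT values of these 4 factors did not overlap. Zswim6 was at 91.9 and 89.7 CPM in the HD libraries and 254 and 252 CPM in the WT libraries (log2 fold change -1.45, SE 0.15, edgeR adjusted p = 0.000716). The Dlx factors of the developing striatum, Dlx1, Dlx2, Dlx5 and Dlx6, did not pass the test, with log2 fold changes from -1.09 for Dlx2 to 0.29 for Dlx6. Rarb overlaps Top2b on the opposite strand, and the strand setting of the counting is not given in the sources used here.

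Interneuron genes were lower for 8 of 16 tested and higher for 0, with a median of -1.29. The count of lower genes was 5 without the preWT library. The cholinergic genes formed 3 of the 8. Chat, which makes acetylcholine, was at 21.4 and 24.6 CPM in the HD libraries and 98.8 and 59.0 CPM in the WT libraries (log2 fold change -1.75, SE 0.26, edgeR adjusted p = 0.00346). Slc5a7, the choline transporter, was at 8.37 and 7.07 CPM in the HD libraries and 31.0 and 24.1 CPM in the WT libraries (log2 fold change -1.80, SE 0.26, edgeR adjusted p = 0.00279). Slc18a3, which loads acetylcholine into vesicles and lies inside the Chat gene on the same strand, was at 4.09 and 7.29 CPM in the HD libraries and 19.0 and 17.6 CPM in the WT libraries (log2 fold change -1.66, SE 0.34, edgeR adjusted p = 0.0123). None of the 3 overlapped between the groups. Of the peptides of other interneurons, Npy was at 74.2 and 71.8 CPM in the HD libraries and 203 and 187 CPM in the WT libraries (log2 fold change -1.39, SE 0.16, edgeR adjusted p = 0.000953). Sst was at 143 and 110.5 CPM in the HD libraries and 315 and 299 CPM in the WT libraries (log2 fold change -1.25, SE 0.18, edgeR adjusted p = 0.00256). Th, which makes dopamine precursor, was also lower (log2 fold change -1.83, SE 0.36, edgeR adjusted p = 0.0108), as were Nos1 and Kit, with log2 fold changes of -1.60 and -1.29. Pvalb, the marker of fast-spiking interneurons, was at 44.4 and 204 CPM in the HD libraries and 20.1 and 12.5 CPM in the WT libraries and did not pass the test (log2 fold change 2.95, SE 1.03, edgeR adjusted p = 0.206). Its HD values differed from each other more than the WT values did.

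Immediate early genes, which neurons switch on within minutes of activity or stress, were lower as a group. Of 28 tested, 20 were lower and 0 were higher, with a median log2 fold change of -1.98. The summed level of the list was 604 and 526 CPM in the HD libraries and 1936 and 2138 CPM in the WT libraries. Between 17 and 19 genes of the list were lower when each library was left out in turn. The list spans transcription factors (Egr, Fos, Nr4a and Npas4), phosphatases that end kinase signals (Dusp), and effectors at the synapse (Arc, Homer1, Nptx2).

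The promoters of the 4 immediate early genes that fell most among those in the RefSeq promoter table used here (GRCm38.p6) are shown because these genes moved together. Each is the 250 bases before the first start listed, 5′ to 3′ on the gene's own strand, with motif matches in capitals. The motifs searched on both strands were the core motif of the cyclic AMP response element (TGACG, or CGTCA on the other strand), the full element TGACGTCA, which contains the core motif, the CArG box of serum response factor and the EGR site GCGNGGGCG. Egr2 (chr10:67535249-67535498, plus strand) held no match, Npas4 (chr19:4989972-4990221, minus strand) held 2 core motifs, Nr4a1 (chr15:101266596-101266845, plus strand) held 4 core motifs and 1 EGR site, and Fos (chr12:85473640-85473889, plus strand) held 2 core motifs.
Egr2: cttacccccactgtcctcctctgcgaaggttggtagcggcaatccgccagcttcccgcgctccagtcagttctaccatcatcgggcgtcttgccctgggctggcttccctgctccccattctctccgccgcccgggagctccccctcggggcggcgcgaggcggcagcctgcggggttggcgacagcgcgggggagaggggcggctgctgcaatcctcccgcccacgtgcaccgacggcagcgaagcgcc
Npas4: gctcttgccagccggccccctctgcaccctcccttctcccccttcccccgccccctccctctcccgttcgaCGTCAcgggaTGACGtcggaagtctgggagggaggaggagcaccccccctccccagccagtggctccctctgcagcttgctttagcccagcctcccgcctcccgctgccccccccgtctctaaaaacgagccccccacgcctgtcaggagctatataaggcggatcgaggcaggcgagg
Nr4a1: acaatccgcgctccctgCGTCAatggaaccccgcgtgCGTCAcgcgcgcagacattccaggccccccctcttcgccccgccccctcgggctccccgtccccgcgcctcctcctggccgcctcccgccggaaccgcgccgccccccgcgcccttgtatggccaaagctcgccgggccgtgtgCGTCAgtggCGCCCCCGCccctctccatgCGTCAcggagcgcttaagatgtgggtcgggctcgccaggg
Fos: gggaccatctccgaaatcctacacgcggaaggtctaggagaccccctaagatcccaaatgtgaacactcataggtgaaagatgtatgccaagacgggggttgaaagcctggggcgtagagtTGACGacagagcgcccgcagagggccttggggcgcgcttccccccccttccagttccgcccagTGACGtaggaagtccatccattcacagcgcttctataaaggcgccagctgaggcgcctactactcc

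A core motif TGACG was found in this window of 9 of the 14 lower immediate early genes with a promoter in the table (64.3%), against 27.0% of the 10403 tested genes with a promoter. For all genes lower in HD striatum the share was 25.0% of 740, and for all genes higher it was 27.5% of 663. The full element was found in 2 of the 14 (14.3%) against 2.81% of all, the CArG box in 0 of the 14 against 1.18%, and the EGR site in 3 of the 14 (21.4%) against 9.12%. A match describes the letters of the window only. Immediate early genes that did not pass were not counted apart, so the shares of the 14 cannot be tied to the lower level in HD.

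Among transcription factors, Egr2 was at 0.279 and 0.750 CPM in the HD libraries and 23.7 and 23.8 CPM in the WT libraries (log2 fold change -5.50, SE 0.43, edgeR adjusted p = 0.000226). The HD values of Egr2 rest on 3 and 7 counts, against 248 and 237 in the WT libraries. Npas4, which neurons induce on calcium entry, was at 0.651 and 0.536 CPM in the HD libraries and 10.7 and 18.9 CPM in the WT libraries (log2 fold change -4.57, SE 0.49, edgeR adjusted p = 0.000729). Nr4a1 was at 14.0 and 8.04 CPM in the HD libraries and 72.8 and 134 CPM in the WT libraries (log2 fold change -3.18, SE 0.37, edgeR adjusted p = 0.00239). Egr1 was more abundant, at 111 and 62.5 CPM in the HD libraries and 432 and 416 CPM in the WT libraries (log2 fold change -2.25, SE 0.26, edgeR adjusted p = 0.00142). For these factors both HD libraries lay below both WT libraries. Fos was at 4.28 and 3.54 CPM in the HD libraries and 10.4 and 35.8 CPM in the WT libraries (log2 fold change -2.52, SE 0.57, edgeR adjusted p = 0.0284), and its postWT value lay nearer to the HD values than to the preWT value. Effectors at the synapse were also lower. Arc, which acts on AMPA receptor uptake, was at 13.4 and 15.9 CPM in the HD libraries and 89.1 and 142 CPM in the WT libraries (log2 fold change -2.95, SE 0.25, edgeR adjusted p = 0.00028). Homer1, a scaffold of glutamate receptors, was at 79.3 and 74.9 CPM in the HD libraries and 182 and 187 CPM in the WT libraries (log2 fold change -1.23, SE 0.15, edgeR adjusted p = 0.00143). Jun, named after its values were seen as the member with the highest log2 fold change, was at 30.8 and 44.2 CPM in the HD libraries and 22.8 and 45.1 CPM in the WT libraries (log2 fold change 0.17, SE 0.32, edgeR adjusted p = 0.761), and its groups overlapped.

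Receptors for peptides and monoamines fell in part. Of 26 neuropeptides and peptide receptors tested, 6 were lower and 0 were higher, and of 20 receptors for monoamines, acetylcholine and adenosine, 5 were lower and 1 was higher. Without the preWT library 1 of the 26 was lower, and without the postWT library 3 of the 20. The κ opioid receptor Oprk1 was at 10.3 and 6.75 CPM in the HD libraries and 26.4 and 38.4 CPM in the WT libraries (log2 fold change -1.88, SE 0.29, edgeR adjusted p = 0.00369). The substance P receptor Tacr1 was at 9.95 and 6.54 CPM in the HD libraries and 36.4 and 23.7 CPM in the WT libraries (log2 fold change -1.83, SE 0.31, edgeR adjusted p = 0.00585). Both HD libraries lay below both WT libraries for these receptors. The histamine receptor Hrh3 was at 44.4 and 46.8 CPM in the HD libraries and 211 and 216 CPM in the WT libraries (log2 fold change -2.20, SE 0.16, edgeR adjusted p = 0.000144). The adrenergic receptor Adra2c was at 26.1 and 30.0 CPM in the HD libraries and 94.6 and 102 CPM in the WT libraries (log2 fold change -1.78, SE 0.18, edgeR adjusted p = 0.000531). Adora1, the adenosine A1 receptor, fell less (log2 fold change -1.06, SE 0.17, edgeR adjusted p = 0.00425). Chrm2, the M2 muscarinic receptor, was the member that rose, from 2.67 and 0.904 CPM in the WT libraries to 9.76 and 8.68 CPM in the HD libraries (log2 fold change 2.38, SE 0.53, edgeR adjusted p = 0.0179). Without the preWT library its adjusted p was 0.125 by edgeR, and without HD 1 the list of 20 had 3 higher genes.

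Ion channels were lower more often than higher. Of 38 potassium channel genes tested, 15 were lower and 3 were higher, with a median of -0.85, and 9 were lower and 1 was higher without the preWT library. Without HD 1, 5 were higher. Kcnk2 (TREK-1), a leak channel, was at 144 and 107 CPM in the HD libraries and 511 and 507 CPM in the WT libraries (log2 fold change -1.99, SE 0.19, edgeR adjusted p = 0.000448). Kcnh3 was at 14.7 and 28.1 CPM in the HD libraries and 88.4 and 93.1 CPM in the WT libraries (log2 fold change -2.06, SE 0.28, edgeR adjusted p = 0.00256). The 3 that rose were Kcnc1 (1.17), Kcnj3 (1.47) and Kcnc2 (1.84), by log2 fold change. Kcnc1 and Kcnc2 encode Kv3 channels of fast-spiking cells, and Kcnj3 encodes GIRK1. Kcnc2 was at 13.5 and 35.9 CPM in the HD libraries and 8.30 and 5.63 CPM in the WT libraries. It was at 117 CPM in the second pre-symptomatic HD striatal library, which had high thalamic markers. The part of other tissue in its increase was not tested. Of 33 sodium and calcium channel and pump genes, 13 were lower and 1, Scn1a, was higher, with 4 lower without the postWT library and 6 without the preWT library. Cacna2d3 was at 39.0 and 26.7 CPM in the HD libraries and 138 and 169 CPM in the WT libraries (log2 fold change -2.19, SE 0.22, edgeR adjusted p = 0.000547). Atp2b1, a calcium pump of the cell membrane, was at 1015 and 1036 CPM in the HD libraries and 3110.4 and 2626 CPM in the WT libraries (log2 fold change -1.46, SE 0.18, edgeR adjusted p = 0.00135).

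At synapses, 13 of 33 glutamate receptor and scaffold genes were lower and 1 was higher, with 5 lower without either WT library. Grm5, which couples to calcium release, was at 279.6 and 214 CPM in the HD libraries and 582 and 685 CPM in the WT libraries (log2 fold change -1.33, SE 0.18, edgeR adjusted p = 0.00236). Grm4 was at 44.5 and 37.5 CPM in the HD libraries and 195 and 175 CPM in the WT libraries (log2 fold change -2.14, SE 0.18, edgeR adjusted p = 0.00028). Dlgap3 (SAPAP3), a scaffold abundant in striatal synapses, was at 81.0 and 101 CPM in the HD libraries and 291 and 274 CPM in the WT libraries (log2 fold change -1.61, SE 0.17, edgeR adjusted p = 0.000729). The groups did not overlap for any of the 3. Dlg4 (PSD-95) fell by less (log2 fold change -0.62, SE 0.16, edgeR adjusted p = 0.0318). Of 20 genes of GABA synthesis, transport and reception, 6 were lower and 2 were higher, and 3 were lower without the preWT library. The 2 higher were Gabbr2 and Gabra3, with 4 higher without HD 1 and 1 without any other library. Gabrd, the δ subunit of extrasynaptic GABA receptors, was at 13.7 and 19.5 CPM in the HD libraries and 107 and 95.2 CPM in the WT libraries (log2 fold change -2.58, SE 0.22, edgeR adjusted p = 0.00028). Gad1, which makes GABA, was at 163 and 182 CPM in the HD libraries and 337 and 410.2 CPM in the WT libraries (log2 fold change -1.08, SE 0.16, edgeR adjusted p = 0.00335). Gabbr2 moved the other way from its partner in the GABA-B receptor, Gabbr1. Gabbr2 was at 17.6 and 12.9 CPM in the HD libraries and 2.77 and 3.01 CPM in the WT libraries (log2 fold change 2.42, SE 0.35, edgeR adjusted p = 0.00263). Gabbr1 was at 407 and 342 CPM in the HD libraries and 699 and 632 CPM in the WT libraries (log2 fold change -0.80, SE 0.17, edgeR adjusted p = 0.0151).

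In the vesicle fusion list, 9 of 32 genes were lower and 3 were higher, with 5 lower without the postWT library and 4 without the preWT library. The higher genes numbered 6 without HD 1 and 1 without the preWT library. Unc13a, which primes vesicles, was at 32.0 and 25.7 CPM in the HD libraries and 83.6 and 109 CPM in the WT libraries (log2 fold change -1.71, SE 0.20, edgeR adjusted p = 0.00122). Cplx2 (complexin 2) was at 412 and 499.9 CPM in the HD libraries and 1329 and 1149.9 CPM in the WT libraries (log2 fold change -1.41, SE 0.18, edgeR adjusted p = 0.00152). The abundant calcium sensor Syt1 was at 902 and 943 CPM in the HD libraries and 1219 and 1359 CPM in the WT libraries and did not pass the test (log2 fold change -0.45, SE 0.16, edgeR adjusted p = 0.0953).

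**Figure D3:**
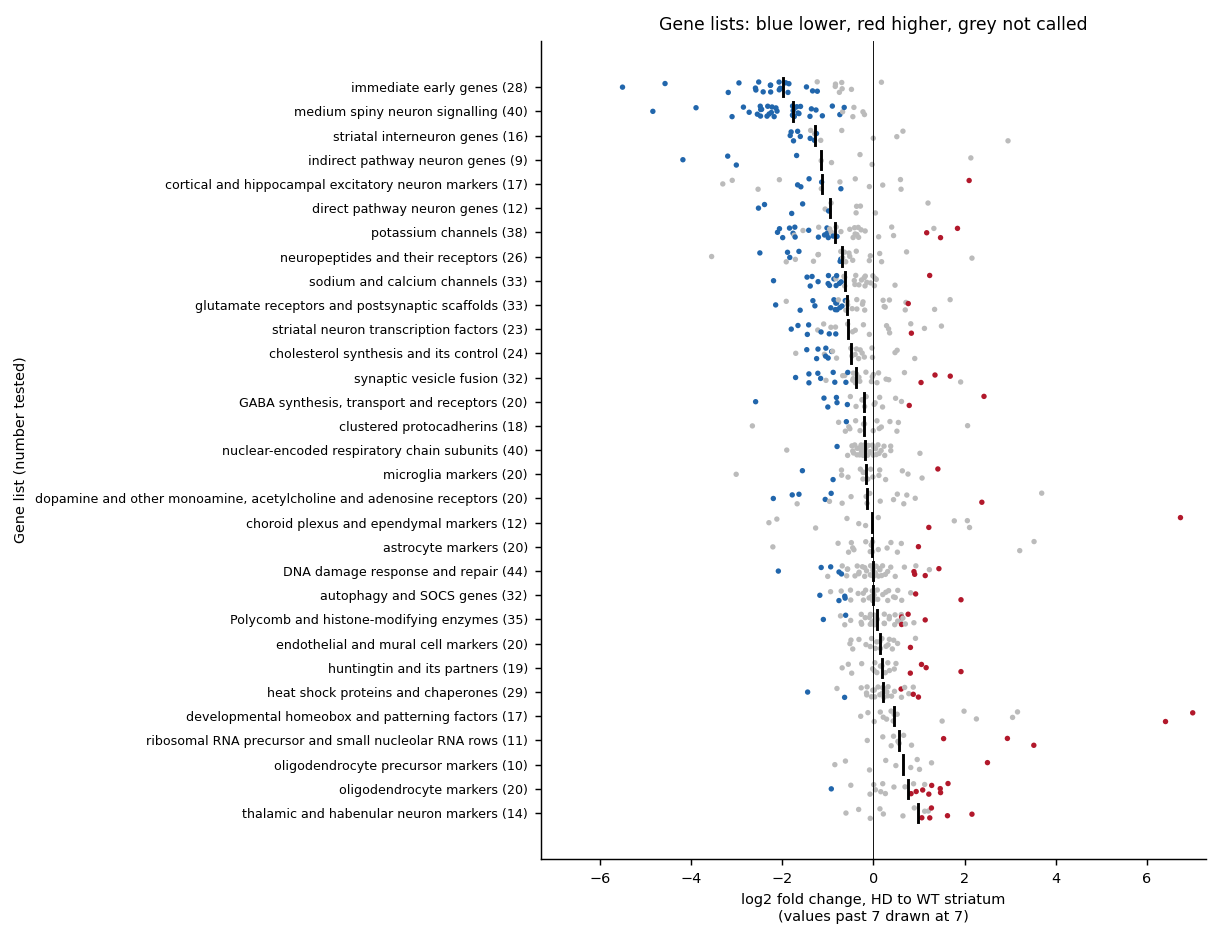
log2 fold change of HD over WT striatum (horizontal axis) of the members of 31 gene lists (vertical axis, number tested in brackets and values past 7 drawn at 7), with members lower in HD in blue, higher in red and not called in grey, and a black bar at each median. The medians of immediate early genes (-1.98) and medium spiny neuron signalling (-1.77) are the lowest, and those of thalamic and habenular markers (0.98) and oligodendrocyte markers (0.76) are the highest.

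Cholesterol synthesis genes were lower for 7 of 24 tested and higher for 0, with a median of -0.48, and 2 were lower without the preWT library. The median was -0.81 without HD 2 and -0.32 without the preWT library. Besides synthesis, the list covers the control of cholesterol, so the 7 lower genes are not all synthesis genes. Cyp46a1, which turns cholesterol of neurons into a form that leaves the brain, was at 66.7 and 70.8 CPM in the HD libraries and 204 and 182 CPM in the WT libraries (log2 fold change -1.46, SE 0.16, edgeR adjusted p = 0.000896). Msmo1 was at 44.7 and 39.0 CPM in the HD libraries and 93.3 and 109.7 CPM in the WT libraries (log2 fold change -1.25, SE 0.18, edgeR adjusted p = 0.00256). Sqle was at 12.2 and 11.4 CPM in the HD libraries and 20.9 and 35.2 CPM in the WT libraries (log2 fold change -1.22, SE 0.28, edgeR adjusted p = 0.0205). The groups did not overlap for these enzymes. Of 40 nuclear-encoded respiratory chain genes, 1 (Ndufa1, log2 fold change -0.80, SE 0.21, edgeR adjusted p = 0.0342) was lower and 0 were higher, with a median of -0.18. The median was -0.07 without HD 1, where 2 were higher and 0 lower, and -0.36 without HD 2, and Ndufa1 had an adjusted p of 0.278 by edgeR without the preWT library. That share, at 1 of 40, lay under the 7.55% of all genes called lower. Heat shock genes were higher for 3 of 29 and lower for 2, with 0 in either direction without the preWT library. Without HD 1, 5 were higher, and without HD 2, 1 was. The shares of heat shock genes, 10.3% higher and 6.90% lower, were near the 6.41% and 7.55% of all genes. Hspb1, a small heat shock protein, was at 38.4 and 51.2 CPM in the HD libraries and 27.4 and 18.6 CPM in the WT libraries (log2 fold change 0.99, SE 0.25, edgeR adjusted p = 0.0307). Dnajb5 was at 22.7 and 14.4 CPM in the HD libraries and 43.9 and 59.5 CPM in the WT libraries (log2 fold change -1.44, SE 0.26, edgeR adjusted p = 0.00784).

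The study was concerned with the response to DNA damage, and 44 genes of damage signalling and repair were tested. Of these, 5 were lower (Usp28, Polb, Fbxw7, H2afx and Gadd45g), 4 were higher (Cdkn1a, Nbn, Lig1 and Xpa) and 35 did not pass, with a median log2 fold change of -0.01 (-0.14 without HD 1). These counts were 3 lower and 1 higher without the postWT library, and 1 lower and 0 higher without the preWT library. The shares, 11.4% lower and 9.09% higher, were near the 7.55% and 6.41% of all genes.

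Usp28, a deubiquitinase that acts on checkpoint proteins, was at 2.32 and 3.32 CPM in the HD libraries and 10.2 and 14.3 CPM in the WT libraries (log2 fold change -2.09, SE 0.38, edgeR adjusted p = 0.0082). The gene spans bases 48985375 to 49042517 of chromosome 9, plus strand. Without the preWT library its adjusted p was 0.118 by edgeR. Polb, the DNA polymerase of base excision repair, was at 23.9 and 22.9 CPM in the HD libraries and 55.6 and 50.1 CPM in the WT libraries, a mean 2.26-fold lower in HD (log2 fold change -1.15, SE 0.19, edgeR adjusted p = 0.00502). The gene spans bases 22628126 to 22653435 of chromosome 8, minus strand. Fbxw7, the substrate receptor of an SCF ubiquitin ligase, was at 163 and 139 CPM in the HD libraries and 263 and 328 CPM in the WT libraries (log2 fold change -0.94, SE 0.17, edgeR adjusted p = 0.0082), and without the preWT library its adjusted p was 0.0897 by edgeR. For each of the 3, both HD libraries lay below both WT libraries.

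Cdkn1a (p21), an inhibitor of the cell cycle, was at 39.6 and 70.0 CPM in the HD libraries and 23.0 and 18.2 CPM in the WT libraries (log2 fold change 1.44, SE 0.28, edgeR adjusted p = 0.0124), and without the preWT library its adjusted p was 0.111 by edgeR. Nbn, of the MRN complex that binds broken DNA ends, was at 18.4 and 15.5 CPM in the HD libraries and 7.16 and 8.64 CPM in the WT libraries (log2 fold change 1.14, SE 0.28, edgeR adjusted p = 0.028). The checkpoint kinase gene Chek2 was at 2.60 and 0.857 CPM in the HD libraries and 3.91 and 1.81 CPM in the WT libraries and did not pass the test (log2 fold change -0.68, SE 0.73, edgeR adjusted p = 0.58). Its partner kinase gene Chek1 held between 6 and 15 counts per library (log2 fold change 0.93, SE 0.84, edgeR adjusted p = 0.508). For both kinases a difference was not detectable at this depth. Trp53 (p53) was at 3.25 and 7.29 CPM in the HD libraries and 5.25 and 5.43 CPM in the WT libraries (log2 fold change 0.00, SE 0.47, edgeR adjusted p = 0.997). Ddb1 (log2 fold change 0.14, SE 0.18, edgeR adjusted p = 0.64), Xrcc6 (log2 fold change 0.18, SE 0.45, edgeR adjusted p = 0.829) and Cops6 (CSN6, log2 fold change 0.11, SE 0.19, edgeR adjusted p = 0.75) did not pass either.

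The mouse Htt gene was at 20.8 and 27.9 CPM in the HD libraries and 33.1 and 39.7 CPM in the WT libraries and did not pass the test (log2 fold change -0.55, SE 0.22, edgeR adjusted p = 0.127). Reads of the human transgene were not listed separately. Of 19 genes tested in the list of huntingtin and its partners, 4 were higher and 0 were lower, with 2 higher without the postWT library and 1 without the preWT library. Rest, a repressor of neuronal genes, was at 24.5 and 28.0 CPM in the HD libraries and 14.1 and 9.85 CPM in the WT libraries (log2 fold change 1.16, SE 0.26, edgeR adjusted p = 0.0185). Crebbp, the CREB-binding protein, was at 224 and 221 CPM in the HD libraries and 143 and 116 CPM in the WT libraries (log2 fold change 0.81, SE 0.17, edgeR adjusted p = 0.0142). Hip1 was at 46.6 and 56.4 CPM in the HD libraries and 22.1 and 28.5 CPM in the WT libraries (log2 fold change 1.05, SE 0.21, edgeR adjusted p = 0.0107). Each HD value of these 3 genes lay above both WT values. Optn (optineurin), a receptor of selective autophagy, was at 7.62 and 13.5 CPM in the HD libraries and 3.53 and 2.11 CPM in the WT libraries (log2 fold change 1.92, SE 0.45, edgeR adjusted p = 0.0224). The autophagy and SOCS list had 2 higher and 4 lower genes of 32, and 0 in either direction without one or the other WT library. Without HD 1, 4 were higher, and without HD 2, 1 was higher and 2 were lower. The shares of the autophagy and SOCS list were 6.25% higher and 12.5% lower, against 6.41% and 7.55% of all genes. Socs2, a suppressor of cytokine signals, was at 13.3 and 10.9 CPM in the HD libraries and 29.0 and 26.9 CPM in the WT libraries (log2 fold change -1.18, SE 0.23, edgeR adjusted p = 0.011). Without the postWT library its adjusted p was 0.0920 by edgeR.

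Among Polycomb and histone-modifying enzymes, 4 of 35 genes were higher and 2 were lower. The shares, 11.4% higher and 5.71% lower, were near the 6.41% and 7.55% of all genes. The higher genes numbered 7 without HD 1, 2 without HD 2, 1 without the postWT library and 0 without the preWT library. Suz12, a core subunit of the Polycomb complex that methylates histone H3, was at 66.7 and 62.9 CPM in the HD libraries and 33.0 and 27.1 CPM in the WT libraries (log2 fold change 1.13, SE 0.19, edgeR adjusted p = 0.00547). Cbx6, a reader of that mark, was at 568 and 509.6 CPM in the HD libraries and 1004 and 1356 CPM in the WT libraries (log2 fold change -1.10, SE 0.19, edgeR adjusted p = 0.00586). Of the homeobox and patterning factors, 17 were tested and 2 were higher (4 without HD 1), and 14 of the list had 0 counts in all 4 libraries. Shox2, a homeobox factor of the thalamus and habenula among other sites, held 392 and 308 counts in the HD libraries and 0 in both WT libraries, so that it was at least 237-fold higher with a floor of 3 counts over the WT group. It was at 36.4 and 33.0 CPM in HD. Pou4f1 (Brn3a), a factor of the habenula and sensory neurons, held 101 counts in the HD libraries and 1 in the WT libraries, a ratio of 103 (95% interval 18.0 to 4097, counting error only). Both genes were also seen in HD cortex, where Shox2 was at 14.3 and 11.9 CPM against 0 in both WT cortex libraries. Pou4f1 was at 24.5 and 12.8 CPM there, against 0.507 and 0.424 CPM in WT cortex. Shox2 overlaps Rsrc1 on the opposite strand. Of 18 clustered protocadherins tested, 1 (Pcdhga9) was lower and 0 were higher, and its call was lost without any 1 of the 4 libraries. Pcdhga9 overlaps other listed genes of its cluster on the same strand, so its reads cannot be told apart from theirs by the symbol alone.

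Thalamic and habenular markers were higher for 5 of 14 tested and lower for 0, with a median of 0.98. The list summed to 337 and 395 CPM in the HD libraries and 219.9 and 197 CPM in the WT libraries. The count of higher markers was 3 without the postWT library and 1 without the preWT library, and without HD 1 it was 7, with 2 lower. Slc17a6 (VGLUT2), the glutamate transporter of thalamic neurons, was at 22.0 and 19.1 CPM in the HD libraries and 5.72 and 3.62 CPM in the WT libraries (log2 fold change 2.16, SE 0.32, edgeR adjusted p = 0.00317). Tcf7l2, a thalamic transcription factor, was at 59.5 and 53.0 CPM in the HD libraries and 30.3 and 17.1 CPM in the WT libraries (log2 fold change 1.27, SE 0.27, edgeR adjusted p = 0.0167). Both lay above the WT values in HD. The defining marker Prkcd was at 1.67 and 5.79 CPM in the HD libraries and 2.39 and 7.13 CPM in the WT libraries and did not pass (log2 fold change -0.32, SE 0.69, edgeR adjusted p = 0.798). Choroid plexus and ependymal markers summed to 379.7 and 375 CPM in HD and 192 and 143 CPM in WT, and 2 of 12 were higher, namely Ttr and Enpp2, with a median of -0.03. Without HD 1, 5 of them were lower, and without the preWT library 1 was higher. Ttr (transthyretin), the leading product of the choroid plexus, was at 108 and 77.8 CPM in the HD libraries and 0.572 and 1.21 CPM in the WT libraries (log2 fold change 6.73, SE 0.34, edgeR adjusted p = 6.66e-05). Of the other defining markers, Kl was at 1.67 and 2.57 CPM in the HD libraries and 0.191 and 0.804 CPM in the WT libraries and Folr1 had too few counts to be tested. The part of these tissues in the increases of Shox2, Pou4f1, Ttr and Slc17a6, or in the lower share of striatal genes, was not tested.

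Oligodendrocyte markers were higher for 8 of 20 tested and lower for 1, with a median of 0.76. The HD libraries differed here, with medians of 0.12 in HD 1 and 1.04 in HD 2, and the median was 0.13 without HD 2. The count of higher markers was 3 without HD 2, 3 without the postWT library and 0 without the preWT library. Sox10, a transcription factor of the lineage, was at 62.9 and 138 CPM in the HD libraries and 35.1 and 30.5 CPM in the WT libraries (log2 fold change 1.63, SE 0.35, edgeR adjusted p = 0.0252). Mag, of myelin, was at 261 and 512 CPM in the HD libraries and 163 and 122 CPM in the WT libraries (log2 fold change 1.46, SE 0.32, edgeR adjusted p = 0.0284). These 2 markers were higher in HD 2 than in HD 1. Mbp was at 2099 and 4040.1 CPM in the HD libraries and 2301 and 2281 CPM in the WT libraries and did not pass (log2 fold change 0.45, SE 0.28, edgeR adjusted p = 0.324). The list summed to 5109 and 8456 CPM in HD and 5788 and 6658 CPM in WT, so that the summed level overlapped between the groups.

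For other glia and vessels the counts stand beside the 14.0% of all genes called. Of 10 oligodendrocyte precursor markers, 1 was higher (Enpp6) and 0 were lower, with 4 higher without HD 1 and 0 without the preWT library. Of 20 astrocyte markers, 1 was higher (Gjb6, connexin 30, log2 fold change 0.99, SE 0.25, edgeR adjusted p = 0.0316) and 0 were lower, with 5 higher without HD 1. The astrocyte list had a median log2 fold change of -0.03, with 12 members below 0, 8 above and a lowest of -2.21. Gfap, which reactive astrocytes raise, was at 24.5 and 109 CPM in the HD libraries and 6.49 and 8.24 CPM in the WT libraries. It did not pass (log2 fold change 3.21, SE 0.89, edgeR adjusted p = 0.116), and its HD libraries differed from each other by more than the WT libraries did. Of 20 microglia markers, 1 was higher and 2 were lower, with a median of -0.17. Without HD 1, 3 were lower, and without the preWT library 0 were called in either direction. Aif1 (IBA1) and Gpr34 were the 2 lower, with log2 fold changes of -0.89 (edgeR adjusted p = 0.0337) and -1.56 (edgeR adjusted p = 0.0343). Ctss (cathepsin S) was at 110.1 and 172 CPM in the HD libraries and 64.3 and 43.4 CPM in the WT libraries (log2 fold change 1.41, SE 0.26, edgeR adjusted p = 0.0109). Cx3cr1 was at 103 and 115 CPM in the HD libraries and 134 and 126 CPM in the WT libraries and did not pass (log2 fold change -0.22, SE 0.16, edgeR adjusted p = 0.379). Of 20 endothelial and mural markers, 1 (Rgs5) was higher, and 0 were without HD 2 or without either WT library. Cortical and hippocampal excitatory markers were lower for 5 of 17 and higher for 1, with 3 lower without the preWT library. In that list Slc17a7 (VGLUT1) was at 2.70 and 5.68 CPM in the HD libraries and 7.06 and 66.2 CPM in the WT libraries and did not pass (log2 fold change -3.10, SE 1.48, edgeR adjusted p = 0.311), with the preWT library standing apart from the other 3. The part of cortical tissue in the preWT values was not tested.

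**Figure D4:**
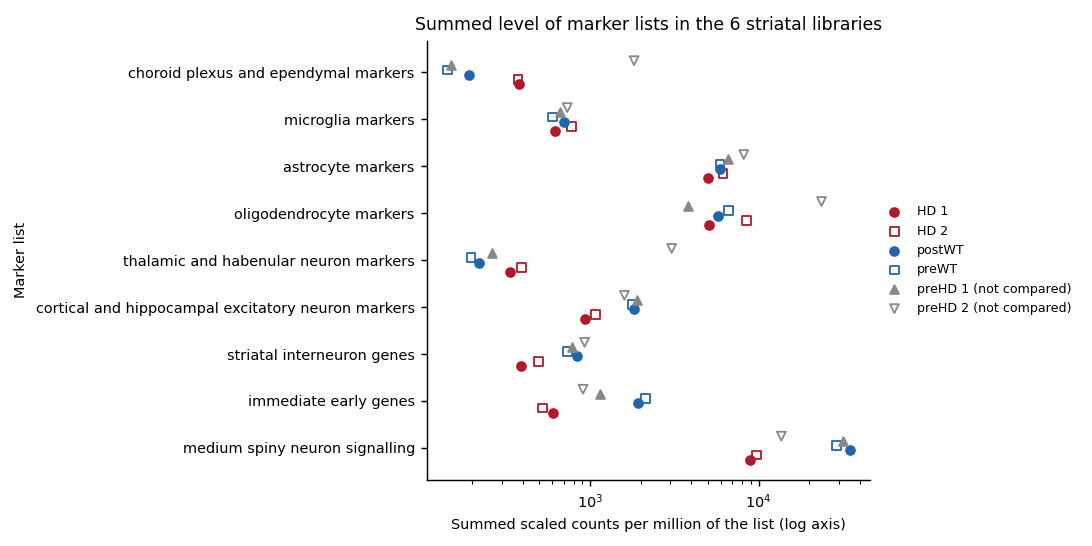
Summed CPM (horizontal log axis) of 9 marker lists (vertical axis) in the 6 striatal libraries, with HD in red, WT in blue and the pre-symptomatic HD libraries, which were not compared, in grey. The HD libraries lie below the WT libraries for medium spiny neuron signalling, immediate early, interneuron and cortical lists, and the second pre-symptomatic library lies highest for oligodendrocyte, thalamic and choroid plexus markers.

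By size of change, the 10 genes that passed the test and fell most, with groups that did not overlap and a mean of at least 5 CPM, were Sec14l3, Egr2, Ptpn7, Scn4b, Npas4, Epyc, Car12, Ryr1, Abi3bp and Cd4. Sec14l3, a lipid-binding protein, had 0 counts in both HD libraries and 212 and 61 counts in the WT libraries, so that it was at least 89.5-fold lower with a floor of 3 counts over the HD group. Ptpn7, a tyrosine phosphatase, was at 0 and 0.857 CPM in the HD libraries and 17.7 and 12.7 CPM in the WT libraries (log2 fold change -5.16, SE 0.79, edgeR adjusted p = 0.00514). Epyc, a proteoglycan, was at 1.02 and 1.07 CPM in the HD libraries and 29.5 and 15.9 CPM in the WT libraries (log2 fold change -4.40, SE 0.44, edgeR adjusted p = 0.000531). Car12, a carbonic anhydrase, was at 3.53 and 0.536 CPM in the HD libraries and 34.6 and 44.4 CPM in the WT libraries (log2 fold change -4.20, SE 0.61, edgeR adjusted p = 0.00769). Cd4, best known from T cells, was at 2.79 and 5.47 CPM in the HD libraries and 49.1 and 55.8 CPM in the WT libraries (log2 fold change -3.65, SE 0.31, edgeR adjusted p = 0.00028). For each of these genes both HD libraries lay below both WT libraries.

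The 10 genes that rose most by the same rule were Shox2, Ttr, Gdf11, Acy3, Snora81, Gm9833, Anln, Zbtb16, N4bp2 and Cast. Gdf11, a ligand of the TGF-β family, was at 8.46 and 10.4 CPM in the HD libraries and 0.477 and 0.703 CPM in the WT libraries, a mean 16.0-fold higher in HD (edgeR adjusted p = 0.00143). Anln (anillin), a scaffold of septins, was at 43.6 and 84.0 CPM in the HD libraries and 10.7 and 8.34 CPM in the WT libraries (log2 fold change 2.77, SE 0.33, edgeR adjusted p = 0.00152). All 10 lay above both WT libraries in both HD libraries, as the rule requires. Zbtb16 (PLZF), a transcriptional repressor, was at 12.6 and 30.8 CPM in the HD libraries and 4.01 and 2.81 CPM in the WT libraries (log2 fold change 2.68, SE 0.46, edgeR adjusted p = 0.00696). Cast, which encodes the calpain inhibitor calpastatin and overlaps Erap1 on the opposite strand, was at 10.1 and 10.4 CPM in the HD libraries and 2.29 and 1.11 CPM in the WT libraries (log2 fold change 2.61, SE 0.46, edgeR adjusted p = 0.00679). Snora81, a small nucleolar RNA gene inside Eif4a2 on the same strand, was at 17.9 and 20.4 CPM in the HD libraries and 3.15 and 1.91 CPM in the WT libraries (log2 fold change 2.94, SE 0.35, edgeR adjusted p = 0.00124). Its 3′ tags cannot be told apart from reads of the host transcript by the symbol alone. Of the 11 rows of ribosomal RNA precursor and small nucleolar RNAs tested, 3 were higher, with 7 higher without HD 2 and 1 without the preWT library. Rn45s itself was higher (log2 fold change 1.54, SE 0.26, edgeR adjusted p = 0.00548). Its share of counts also followed genotype in cortex. It was 13.0% and 10.5% in post-symptomatic HD, 13.3% and 13.8% in pre-symptomatic HD, and 5.15% and 5.16% in WT cortex. The labels name no preparation batches, so genotype and library preparation cannot be told apart for this row, and neither was tested.

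Calls of single named genes that rested on 1 library included those below, and the call of Aif1 was also lost without the postWT library. Without the preWT library, the edgeR adjusted p passed 0.05 for Cast, Cbx6, Crebbp, Ctss, Dlg4, Dnajb5, Enpp2, Enpp6, Gabbr1, Gjb6, Hspb1, Kcnc2, Mag, N4bp2, Nbn, Oprk1, Optn, Rest, Rn45s, Slc18a3, Socs2, Sox10, Sqle, Suz12, Tcf7l2, Th, Upb1 and Zbtb16, besides the genes for which it is given above. Without the postWT library, it did so for Dlg4, Gabbr1, Hip1, Kcnc2, Mag, N4bp2, Nbn, Optn, Slc18a3, Sox10, Tacr1 and Upb1. The calls of Gabbr1, Gjb6, Hspb1, Kcnc2 and Optn were lost without HD 2, and those of Dlg4, Ndufa1 and Sec14l3 without HD 1.

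Before symptom onset, the first HD striatal library (8 weeks) lay near WT for several of these genes. Penk was at 1701 CPM, Drd1 at 1299 CPM, Adora2a at 248 CPM and Ppp1r1b at 2086 CPM there. Scn4b was lower, at 197 CPM, and Egr2 was at 3.26 CPM, between the HD and WT values after onset. The second library of that group stood apart, with thalamic markers summing to 3055 CPM, oligodendrocyte markers to 23618 CPM, Shox2 at 419 CPM and Penk at 468 CPM. It did not enter the comparison. When both pre-symptomatic libraries were put into the fit, 27 genes were called, and 1938 were called with the first alone.

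Striatum was then compared with cortex, where post-symptomatic HD mice had 2 libraries and WT littermates of both ages 1 each. The difference between HD and WT mice was itself tested for a difference between the regions over 14419 genes. It differed for 371 genes (2.57%), with 182 lower in striatum than in cortex (1.26%) and 189 higher (1.31%) relative to WT. Leaving out 1 of the 8 libraries gave between 30 genes (without the preWT cortex library) and 1105 genes (without HD 1 of striatum). Drd1 was among the 182, with a log2 fold change of -2.39 in striatum and -0.76 in cortex (difference -1.64, SE 0.26, edgeR adjusted p = 0.00874). Of the 40 medium spiny neuron signalling genes, 10 had a lower difference in striatum and 1, Dgkz, a higher one. Besides Pde10a these included Adcy5 (difference -2.45) and Gng7 (-1.63), which encodes a G protein subunit of medium spiny neurons, with log2 fold changes in cortex of -0.10 and -0.11. Of the 29 immediate early genes tested, 3 (Nr4a1, Dusp14 and Egr4) had a lower difference in striatum and 0 a higher one. Of the oligodendrocyte markers 5 had a higher difference in striatum and 0 a lower one. With a replicate block, which pairs the striatal and cortical libraries of a number, the count of genes was 621 (275 lower and 346 higher in striatum).

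The genes with the largest differences included some that changed in cortex. Pde10a was at 58.6 and 59.2 CPM in HD striatum, at 19.2 and 17.1 CPM in HD cortex and at 12.9 and 7.89 CPM in WT cortex (difference -3.01, SE 0.27, edgeR adjusted p = 0.000315). It thus fell in striatum and was higher in HD cortex (0.77, edgeR adjusted p = 0.0209). Zfp503, a zinc finger repressor of the developing striatum, was at 18.9 and 15.4 CPM in HD cortex against 2.96 and 2.29 CPM in WT cortex, while the striatal test did not pass (log2 fold change -0.43, SE 0.21, edgeR adjusted p = 0.202). Its difference between regions was -3.11 (SE 0.33, edgeR adjusted p = 0.00102). Cdkn1a differed the other way, higher in HD striatum (1.43) but not in cortex (-0.21), with a difference of 1.64 (SE 0.36, edgeR adjusted p = 0.0337).

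For other genes of interest the difference between the regions did not pass the test. Penk differed by -0.95 (SE 0.31, edgeR adjusted p = 0.127), with log2 fold changes of -3.20 in striatum and -2.25 in cortex. For Arc the values were -2.95 and -2.85, with a difference of -0.10 (SE 0.27). For Polb they were -1.15 and -1.26, with a difference of 0.11 (SE 0.24), and for Fbxw7 -0.94 and -1.06, with a difference of 0.12 (SE 0.20). Usp28 had -2.09 in striatum and -0.86 in cortex (difference -1.23, SE 0.52, edgeR adjusted p = 0.231). A p-value that misses the threshold does not show that the regions responded alike.

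**Figure D5:**
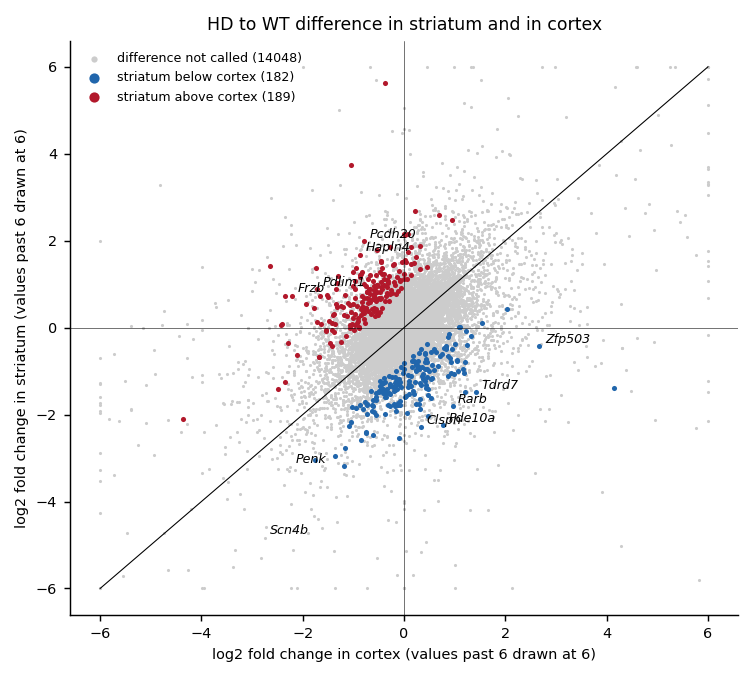
log2 fold change of HD over WT in striatum (vertical axis) against cortex (horizontal axis) for 14419 genes, with the diagonal marking equal change and values past 6 drawn at 6. Blue points are the 182 genes whose difference was lower in striatum and red points the 189 whose difference was higher, with Pde10a and Zfp503 below the diagonal and Pcdh20 above it.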

How the data were processed

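The deposited files held, per library, read counts per gene symbol from the Lexogen QuantSeq 3′ kit. The submitters' processing notes name Bowtie2, bedtools and mm10 without versions. The annotation, the counting rule and the strand setting are not given in the sources used here. The authors deposited raw counts, and no normalised values were used. Of 23282 rows, 44 carried a repeated symbol and 4306 had no count in any library. All rows of the 12 libraries were mapped to samples by the labels.

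The 2 postHD-STR libraries were compared with the postWT-STR and preWT-STR libraries with edgeR 4.0.16 in R 4.3.3 (TMM scaling, low counts removed by filterByExpr at 10, the robust form of the quasi-likelihood test, Benjamini-Hochberg adjustment, threshold 0.05). The SE of a log2 fold change was its size over the square root of F. CPM were scaled by TMM over all 12 libraries. The difference between regions was an interaction over 8 libraries, taken as independent. The labels do not say which libraries share an animal. Striatal and cortical libraries of the same number in HD, or the same age in WT, deviated together from their group means (correlation over 13705 genes 0.203 in HD and 0.129 in WT). These libraries also share sex, so the correlation does not show that they share an animal. A replicate block is given beside the fit that takes libraries as independent. DESeq2 1.42.0, other scalings, filters and sets of libraries were alternatives. On data simulated for the striatal comparison with 200 of 13705 genes changed by 1.5 on the log2 scale, edgeR recovered 138 and 2.13% of its calls were false. For the region difference it recovered 102 of 200 over 14419 genes, with 6.42% false. The simulated libraries differed only in total count, random spread and the changed genes, without differences of age, sex or tissue content. These shares therefore do not give the share of false calls in the real libraries. Totals of about this depth limit precision for genes with few counts, and intervals and floors cover counting error only.

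Named were up to 10 genes in each direction by size of change that passed the test, whose groups did not overlap and whose mean reached 5 CPM, up to 4 called genes and the 2 most abundant of each of 31 lists, genes named by the study, defining genes of medium spiny neurons and up to 5 genes in each direction by region difference. Some genes that this rule names are not reported here. Other genes, among them Gnal, Adcy5, Fos, Jun, Pvalb, Isl1, Kl and the remaining called members of lists, were chosen after their values were seen. The comparison, its members and all lists were chosen with earlier results of these data known. Positions are from GENCODE M21 (GRCm38), in which 95.6% of the symbols were found, and promoters from RefSeq (GRCm38.p6). In M21, 45 of the 181 named genes overlap another listed gene, so that without strand their reads cannot be told apart. Where the overlap is on the same strand, the strand would not separate them either.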

Additional observations from a re-analysis of the deposited data

Results flagged for a closer look

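The difference between HD and WT mice differed between striatum and cortex for several named genes by the interaction test, among them Drd1 and Cdkn1a above. The 9 given here were chosen by the size of this difference between regions, with edgeR adjusted p-values from 0.000315 for Pde10a to 0.0403 for Clspn. Of those lower in striatum, Zfp503 had a difference of -3.11, and Pde10a had -3.01, both on the log2 scale. Tdrd7 had -2.90, with log2 fold changes of -1.49 in striatum and 1.41 in cortex. Rarb had -2.76, with -1.81 in striatum and 0.96 in cortex. Clspn had -2.63, with -2.29 in striatum and 0.33 in cortex.

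Of those higher in striatum, Frzb, a secreted inhibitor of Wnt signals, had a difference of 2.94, with log2 fold changes of 0.73 in striatum and -2.20 in cortex. Pcdh20 had 2.78, with 1.99 and -0.79. Pdlim1 had 2.61, with 0.88 and -1.72. Hapln4, a protein of perineuronal nets, had 2.54, with 1.68 and -0.86. The genes were chosen by the size of this difference, and their rank is not independent evidence of it.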

How the results depend on the processing

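The 1914 genes became 27 with all 6 striatal libraries in the fit (2733 at an unadjusted p under 0.05), 681 at a threshold of 0.01 and 3093 over 11 libraries without the second pre-symptomatic HD striatal library, an alternative chosen after seeing the data. Leaving out 1 library gave 531 to 2570 genes, and the share of lower genes rose from 54.1% to 81.2% without the preWT library and to 61.3% without the postWT library. Without the preWT library 522 of 531 genes and without the postWT library 804 of 884 were among the 1914. DESeq2 gave 2084 genes, and a term for sex gave 2408. Of the named genes over all alternatives, 367 calls were lost, 27 were gained and 0 changed direction.

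The 371 genes that differed between regions became 831 with DESeq2, 805 without a filter on low counts and 62 at a threshold of 0.01. With a replicate block across regions the count was 621, of which 357 were among the 371. Leaving out 1 library gave 30 genes (without the preWT cortex library) to 1105 (without HD 1 of striatum), with 74 without HD 2 of cortex, 103 without the preWT striatal library, 166 without HD 1 of cortex and 174 without the postWT cortex library. The causes were not tested. The WT libraries of the striatal comparison carry no replicate numbers that pair them with the HD libraries, and the term for sex takes 1 male and 1 female library from each group. The pseudocount has no part in tests on counts.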

Other observations

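Rn45s took 14.4% and 13.7% of the counts in the pre-symptomatic HD striatal libraries, which lay with the post-symptomatic HD libraries rather than with WT. The ratio of Penk to Tac1 counts was 3.48 and 3.88 in these libraries, also in the one with high thalamic and oligodendrocyte markers, where Drd1 was at 327 CPM and Tac1 at 121 CPM. Immediate early genes summed to 1154 and 911 CPM in them, between the post-symptomatic HD and the WT values. The medium spiny neuron signalling list summed to 31712 and 13653 CPM. Ttr was at 67.0 and 2978 CPM in post-symptomatic HD cortex, so that it varied there more than in HD striatum.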
